A study of Mus musculus with 120 samples.

Results

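The 7 genes described here encode proteins that work with BiP, the Hsp70 chaperone of the endoplasmic reticulum (ER), which is the product of Hspa5. They are the ER J-domain proteins Dnajb9, Dnajb11, Dnajc1, Dnajc3 and Dnajc10 and the related proteins Sdf2 and Sdf2l1. They were chosen by symbol, and all 7 are among the 22417 genes of the footprint and mRNA tables. Ribosome footprints, which are the stretches of mRNA that ribosomes protect from nuclease, and mRNA were sequenced from mouse embryonic fibroblasts (MEFs) of 3 genotypes. One line was labelled ATF4-/-, so that ATF4, a stress transcription factor, should be missing. In another, S51A, the translation factor eIF2α has alanine at its regulatory serine, which kinases including the ER stress sensor PERK can then no longer phosphorylate. The WT cells were C57BL/6 MEFs. Cells grew in DMEM with serum and received 1 µM thapsigargin, which empties the ER calcium store by blocking its pump, for 0.5, 1, 2 or 4 h, and untreated cells stand as 0 h. Cells were opened with digitonin to release a cytosol fraction and then with DDM to release an ER fraction. There were 120 samples in 60 groups of 2. Genotypes are separate cell lines, so a difference between them cannot be told apart from one between lines, and nothing in the labels says that the 2 libraries of a group were separate cultures.

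J-domain proteins bind an Hsp70, stimulate its ATPase and so lock it onto a client protein. Those of the ER lumen and membrane decide where and when BiP acts: on chains entering the ER, on chains that are folding, or on chains to be degraded. BiP and many of its partners are target genes of the ATF6 and IRE1-XBP1 branches of the unfolded protein response, while PERK, the other branch, phosphorylates eIF2α and favours translation of ATF4. SDF2L1 and SDF2 are close relatives made of MIR domains, and each forms a complex with ERdj3, the Dnajb11 product.

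The members are listed with positions on GRCm38 from GENCODE M21. Dnajb9 (chromosome 12, 44205559 to 44210326, minus strand) has 3 exons and 222 codons. Dnajb11 (chromosome 16, 22857845 to 22879634, plus strand) has 11 exons and 358 codons, and Dnajc1 (chromosome 2, 18195654 to 18392830, minus strand) has 13 exons and 552 codons. Dnajc3 (chromosome 14, 118937976 to 118981697, plus strand) has 12 exons and 504 codons, and Dnajc10 (chromosome 2, 80315466 to 80354043, plus strand) has 23 exons and 793 codons. Sdf2 (chromosome 11, 78245746 to 78255496, plus strand) and Sdf2l1 (chromosome 16, 17130138 to 17132383, minus strand) both have 3 exons, with 219 and 221 codons. The authors' deposited table marks all 7 as ER-targeted.

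Several members changed together under thapsigargin, so their promoters were searched on both strands. The search covered elements that ATF6 and XBP1 are known to bind and, apart from these, the C/EBP-ATF response element. Promoters were RefSeq windows of 300 bases around the annotated start on GRCm38.p6, and all 7 members matched (Sdf2 with 2 windows, the others with 1). Sequence outside these windows was not searched. The ER stress response element ERSE (CCAAT, then 9 bases of any kind, then CCACG) was in 39 of 32851 promoters (0.119%), among them those of Dnajc3 and of Hspa5. The shorter ERSE-II (ATTGG, then 1 base of any kind, then CCACG) was in 12 promoters (0.0365%), among them that of Dnajb11. There it starts at base 8 of the annotated transcript. The bare CCACG, which both elements contain, was in 5 members but also in 32.8% of all promoters. TGACGTGG (UPRE, in 0.676% of promoters) and TGATGNAA (the C/EBP-ATF response element, in 3.97%) were in 0 members. The windows with a full element are printed with that of Hspa5 for comparison, and those of Dnajb9 and Sdf2l1, the members that changed most, are printed to show CCACG without a full element. Capitals mark the element or CCACG, which reads CGTGG where it lies on the other strand.
Dnajc3, chr14:118937802-118937871, plus strand: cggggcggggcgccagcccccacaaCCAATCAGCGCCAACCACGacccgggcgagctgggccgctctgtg
Hspa5, chr2:34772000-34772069, plus strand: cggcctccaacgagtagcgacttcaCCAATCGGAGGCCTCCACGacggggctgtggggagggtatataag
Dnajb11, chr16:22857845-22857872, plus strand: ggcggcgATTGGCCCACGcctggctgct
Dnajb9, chr12:44210069-44210188, minus strand: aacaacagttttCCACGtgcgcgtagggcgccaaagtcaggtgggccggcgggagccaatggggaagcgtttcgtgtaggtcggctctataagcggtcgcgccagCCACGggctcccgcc
Sdf2l1, chr16:17132384-17132503, minus strand: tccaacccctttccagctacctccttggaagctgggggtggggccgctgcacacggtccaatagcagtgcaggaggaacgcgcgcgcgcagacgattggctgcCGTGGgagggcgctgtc
A match describes these letters in these windows and is not evidence of binding.

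Levels are in RPKM, a read density scaled by coding length and by library size, so they can be compared between genes. Summed footprint levels also differed by fraction and time. In WT the ER libraries summed to 380229 and 401377 RPKM at 0 h, and 316032 and 314244 RPKM at 0.5 h. The cytosol libraries summed to 529880 and 522342 RPKM at 0 h, and 677076 and 634324 RPKM at 0.5 h. Changes in a fraction alone and shifts between fractions include this difference. The authors deposited 1 pooled value per group, and the 2 libraries behind it were recovered from the digits (98.1% of footprint values solved, all 770 member values among them). The library with more reads is called the deeper one. A total is an ER library plus a cytosol library of like depth rank. Footprint libraries held 2023743 to 8708903 reads in cells labelled ATF4-/-, 6229492 to 15180953 in S51A and 299043 to 11046810 in WT, where values under 4 reads are listed at 0. The 3 footprint libraries under 500000 reads were the shallower WT ones of cytosol at 0.5 h and of both fractions at 1 h. In the shallower WT cytosol library of 0.5 h, ER-targeted genes made up 14.2% of the summed level, and in the shallower S51A cytosol library of 2 h 10.4%, against 4.02% to 7.66% in the other cytosol libraries. These 2 libraries therefore stand apart in every share on the ER given below. Atf4 footprints were not absent in the cells labelled ATF4-/-: the ER libraries had 110 and 168 RPKM at 4 h, against 2.82 and 5.37 RPKM at 0 h. Which piece of Atf4 was deleted is not stated in the labels, so this neither supports nor contradicts a loss of the protein. Fibroblast markers, 11 of 11, were above 0 in each untreated line, summed endothelial markers were under 1 RPKM and summed immune markers reached at most 1.16 RPKM. Acta1, listed as a muscle marker, had 1316 RPKM in ATF4-/-, 2184 in S51A and 648.5 in WT, and Krt19, an epithelial keratin, had 47.1, 21.3 and 5.92 RPKM in the same lines. Map2, a neuronal marker, went the other way, with 1.27 RPKM in ATF4-/-, 4.61 in S51A and 33.7 in WT. Of the 11 fibroblast markers 7 were lower in untreated ATF4-/- than in WT, where 40.1% of all genes were lower. Among them were Pdgfra (-3.70), Lox (-2.82) and Fn1 (-2.44 on the log2 scale). In untreated S51A 5 were higher and 3 lower, where 2031 of 10367 genes were higher and 2612 lower. At 4 h of thapsigargin 5 of 11 fell in the ATF4-/- line (780 of 10417 genes fell) and 5 of 11 in WT (12.3% of genes fell). In S51A 1 of 10 tested rose (6.08% of genes rose) and 1 fell (685 of 10413 genes fell). The part of these differences in what follows was not tested.

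In untreated WT cells the most translated member was Dnajb11, with totals of 103.8 and 89.05 RPKM in the 2 library pairs, followed by Sdf2 with 86.3 and 79.0 RPKM. These ranges did not overlap but lay close together. Dnajc10 came next with 39.3 and 45.7 RPKM, Dnajb9 had 27.2 and 40.7 RPKM, Sdf2l1 33.3 and 32.2 RPKM, and Dnajc3 27.7 and 26.7 RPKM. Dnajb9 overlapped with each of these 3 genes, so the order among these neighbours is not set by the data. Dnajc1 was lowest, at 15.8 and 10.9 RPKM. After 4 h of thapsigargin the order in WT was Dnajb9 (303 and 284 RPKM), Sdf2l1 (233 and 254 RPKM), Dnajb11 (187 and 172 RPKM), Dnajc3 (60.9 and 81.0 RPKM), Sdf2 (48.4 and 49.8 RPKM), Dnajc10 (34.8 and 38.3 RPKM) and Dnajc1 (21.2 and 20.2 RPKM). No neighbours overlapped in that order, and the 2 members at its head had been in the middle at 0 h.

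**Figure D1:**
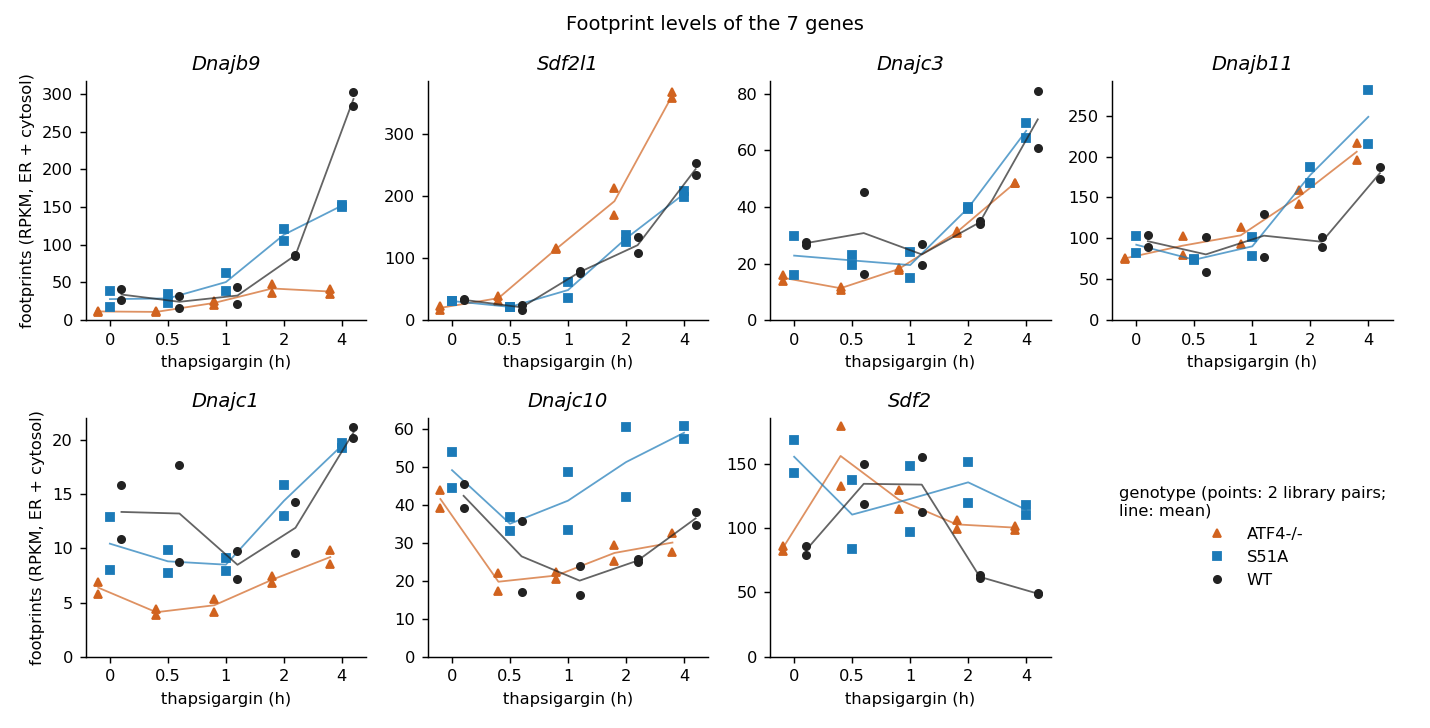
Footprint totals (RPKM, ER plus cytosol) of the 7 genes by hours of thapsigargin in cells labelled ATF4-/- (triangles), S51A (squares) and WT (circles); points are the 2 library pairs and lines their means. Dnajb9 ends at 34.3 and 41.5 RPKM in cells labelled ATF4-/-, below S51A and WT, while Sdf2l1 ends highest there, at 368 and 357 RPKM.

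The first question was which members thapsigargin changed in WT. At 4 h, 5 of the 7 members rose and 1 fell, where 16.8% of the 10369 genes tested rose and 12.3% fell. The median change of the members was 0.89 on the log2 scale, against 0.03 for all genes tested. The 5 that rose were Dnajb9, Sdf2l1, Dnajc3, Dnajb11 and Dnajc1, and the 1 that fell was Sdf2. At 2 h only Dnajb9 and Sdf2l1 had passed the test upward (16.2% of genes rose) and Dnajc10 downward (14.3% fell). Changes are differences of log2(RPKM + 1) ± SE, tested with limma over all genes, with n = 2 library pairs per group and Benjamini-Hochberg adjusted p under 0.05 as the threshold. Being relative levels, they do not show a change in the total amount of translation. Shares of all genes belong to this main setting. Counts of members at an unadjusted p, with voom or under other alternative settings stand without such a share, and so without a background. At 0.5 h and 1 h in WT limma called 0 members on totals (6.25% and 3.04% of genes called), although 3 and 2 had an unadjusted p under 0.05, and voom called 4 and 5. At 0.5 h the WT fractions moved in opposite directions. On the ER alone Dnajc10 (-1.91), Dnajb9 (-1.44), Dnajb11 (-1.15), Dnajc3 (-1.04) and Dnajc1 (-0.86) fell, with adjusted p up to 0.019. In the cytosol alone the same genes and Sdf2 rose, by 2.61 to 3.65, and its shallower library is one that stood apart. For Dnajb9, Dnajc1 and Dnajc3 an untreated WT cytosol library was listed at 0, so the size of their rises depends on the pseudocount.

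Dnajb9 encodes ERdj4, a J-domain protein that brings BiP to IRE1 and to misfolded proteins on their way to degradation. Its ER libraries had 297 and 279 RPKM in WT at 4 h, against 27.2 and 40.7 RPKM at 0 h. Its cytosol libraries had 5.44 and 5.58 RPKM at 4 h and were listed at 0 at 0 h. The ranges were far apart in both fractions, and the total rose by 3.10 ± 0.26 (adjusted p = 9.2e-08). The ER libraries of intermediate times had 11.6 and 11.6 RPKM at 0.5 h, 36.4 and 21.6 RPKM at 1 h and 83.7 and 75.6 RPKM at 2 h, so that the increase was seen from 2 h on (1.35 ± 0.29, adjusted p = 0.0017). In S51A the ER libraries had 148 and 149 RPKM at 4 h, against 16.7 and 36.0 RPKM at 0 h, a rise of the total by 2.51 ± 0.29 (adjusted p = 5.4e-06). The ER libraries labelled ATF4-/- had 32.01 and 39.5 RPKM at 4 h, against 11.6 and 10.8 RPKM at 0 h, a rise of 1.63 ± 0.30 (adjusted p = 8.4e-04). The ER level labelled ATF4-/- at 4 h thus lay within the range of the untreated WT ER libraries.

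Sdf2l1 was the other member with a large rise. In WT its ER libraries had 136 and 154 RPKM at 4 h, against 28.2 and 26.9 RPKM at 0 h. Its cytosol libraries had 97.1 and 99.9 RPKM at 4 h, against 5.04 and 5.29 RPKM at 0 h. Every 4 h library lay above every 0 h library, and the total rose by 2.86 ± 0.17 (adjusted p = 5.9e-10). In S51A the ER libraries had 141 and 149 RPKM at 4 h, against 27.1 and 24.1 RPKM at 0 h, and the total rose by 2.69 ± 0.19 (adjusted p = 2.5e-09). Among the libraries labelled ATF4-/-, those of the ER had 206 and 238 RPKM at 4 h, against 14.6 and 20.6 RPKM at 0 h, and the cytosol libraries had 162 and 119 RPKM, against 1.97 and 2.37 RPKM. That rise, 4.15 ± 0.20 (adjusted p = 1.3e-11), started from the lowest untreated level of the 3 lines and reached the highest 4 h level. At 1 h the totals labelled ATF4-/- were 116 and 114 RPKM, against 16.6 and 22.9 RPKM at 0 h (2.50 ± 0.20, adjusted p = 6.4e-08). At that time S51A had 34.9 and 61.95 RPKM, against 30.2 and 31.3 RPKM at 0 h (0.58 ± 0.19, adjusted p = 0.26). WT had 78.4 and 76.4 RPKM, against 33.3 and 32.2 RPKM at 0 h (1.22 ± 0.34, adjusted p = 0.052), with no overlap, and the difference between the ATF4-/- line and WT did not pass either (1.28 ± 0.39, adjusted p = 0.34).

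Sdf2, the paralog of Sdf2l1, went the other way in WT. Its totals were 48.4 and 49.8 RPKM at 4 h, against 86.3 and 79.0 RPKM at 0 h, with no overlap, and the change was -0.74 ± 0.17 (adjusted p = 0.0026). The change kept its size but the call was narrowly lost without the deeper WT pair of 0 h (-0.68, adjusted p = 0.053), the deeper WT pair of 4 h (-0.72, adjusted p = 0.054) or the shallower one (-0.76, adjusted p = 0.055), and the cytosol fraction alone moved upward, by 0.82. In S51A the totals were 110 and 118 RPKM at 4 h, against 168 and 143 RPKM at 0 h, a change of -0.44 ± 0.18 (adjusted p = 0.13). The totals labelled ATF4-/- were 98.9 and 102 RPKM at 4 h, against 82.4 and 85.9 RPKM at 0 h, a change of 0.25 (adjusted p = 0.41). In the authors' deposited pooled totals, Sdf2l1 made up 83.2% of the sum of Sdf2 and Sdf2l1 at 4 h in WT, against 28.4% at 0 h. That share was 64.0% against 16.5% in S51A and 78.3% against 19.01% in cells labelled ATF4-/-, so in each line the more translated of the pair was Sdf2 at 0 h and Sdf2l1 at 4 h.

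Dnajb11 encodes ERdj3, a soluble J-domain protein that binds clients itself and hands them to BiP. Its ER libraries had 175 and 159 RPKM in WT at 4 h, against 103 and 87.0 RPKM at 0 h, and its cytosol libraries 12.1 and 13.5 RPKM, against 1.04 and 2.04 RPKM. These did not overlap, and the total rose by 0.89 ± 0.16 (adjusted p = 3.6e-04). By limma on the ER alone the WT change at 4 h did not pass (0.81, adjusted p = 0.18), while the cytosol alone rose by 2.47. The ER alone passed at 4 h in S51A (1.45, adjusted p = 0.0078) and in cells labelled ATF4-/- (1.14, adjusted p = 0.0033). In S51A the ER libraries had 274 and 206 RPKM at 4 h, against 79.0 and 94.9 RPKM at 0 h (1.42 ± 0.18 for the total, adjusted p = 1.7e-05). The ER libraries labelled ATF4-/- had 174 and 154 RPKM at 4 h, against 74.2 and 72.9 RPKM at 0 h (1.44 ± 0.19 for the total, adjusted p = 2.4e-05). At 2 h the change was -0.01 ± 0.18 in WT, while it passed the test in S51A (0.95 ± 0.15) and in cells labelled ATF4-/- (0.99 ± 0.18). Without the shallower S51A pair of 2 h, which holds a cytosol library that stood apart, the value in S51A was 0.87 (adjusted p = 0.052). On the ER alone the 2 h change did not pass in S51A (0.74, adjusted p = 0.23), in cells labelled ATF4-/- (0.68, adjusted p = 0.12) or in WT (-0.15, adjusted p = 0.81). In the cytosol alone it was 2.14, 3.53 and 2.18 in that order of lines. Whether the lines differ at 2 h was not tested.

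Dnajc3 encodes p58IPK, a lumenal cochaperone that is also known as an inhibitor of PERK. Its totals in WT were 60.9 and 81.0 RPKM at 4 h, against 27.7 and 26.7 RPKM at 0 h, a rise of 1.34 ± 0.22 (adjusted p = 1.6e-04). In S51A they were 69.6 and 64.2 RPKM, against 15.99 and 29.6 RPKM, a rise of 1.57 ± 0.24 (adjusted p = 2.0e-04). Cells labelled ATF4-/- had 48.4 and 48.3 RPKM in total, against 13.9 and 16.1 RPKM, a rise of 1.63 ± 0.26 (adjusted p = 1.9e-04). In all 3 lines the ranges of 4 h and 0 h were separate. The earlier calls at 2 h in S51A (0.83 ± 0.21, adjusted p = 0.0084) and in cells labelled ATF4-/- (1.00 ± 0.25) rest on few libraries. The S51A call was lost without the deeper pair of 0 h (0.41) or either pair of 2 h (0.82 without the deeper, 0.85 without the shallower). The other was lost without the deeper pair of 0 h (0.91) or either pair of 2 h (0.99 without the deeper, 1.019 without the shallower), each with an adjusted p up to 0.087.

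Dnajc1 encodes ERdj1, a membrane J-domain protein that binds ribosomes. It had the lowest level of the 7 in every untreated line, and its 4 h totals of 21.2 and 20.2 RPKM in WT, against 15.8 and 10.9 RPKM at 0 h, gave a change of 0.62 ± 0.21 (adjusted p = 0.032). That call was lost under 6 other settings, among them median-ratio scaling (0.38), and without the shallower WT pair of 0 h (0.37) or either pair of 4 h (0.58 without the deeper, 0.65 without the shallower). In S51A the change was 0.88 ± 0.23 (adjusted p = 0.015), from 19.3 and 19.7 RPKM at 4 h against 7.96 and 12.9 RPKM at 0 h. It was lost without the deeper S51A pair of 0 h (0.56, adjusted p = 0.30) and without either pair of 4 h (0.89 without the deeper, 0.86 without the shallower). The change labelled ATF4-/- was 0.47 ± 0.24 (adjusted p = 0.19).

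Dnajc10 encodes ERdj5, which joins its J-domain to thioredoxin domains and reduces disulfides of proteins bound for degradation. Its total passed no test at 4 h: the change was -0.46 in cells labelled ATF4-/- (adjusted p = 0.16), 0.26 in S51A (adjusted p = 0.46) and -0.21 ± 0.19 in WT (adjusted p = 0.44). Its totals were lower early on. Totals labelled ATF4-/- were 22.2 and 17.4 RPKM at 0.5 h, against 39.3 and 43.9 RPKM at 0 h (-1.04 ± 0.24, adjusted p = 0.015), and remained low at 1 h (-0.92 ± 0.22, adjusted p = 0.010). In WT they were 24.9 and 25.8 RPKM at 2 h, against 39.3 and 45.7 RPKM at 0 h (-0.72 ± 0.21, adjusted p = 0.015). Each of these calls was lost without some single pair of libraries. Those were the shallower pair of 0 h or of 0.5 h (-0.96 and -0.88) and the shallower pair of 0 h or of 1 h (-0.85 and -0.86) in cells labelled ATF4-/-. In WT they were the shallower pair of 0 h (-0.61) or either pair of 2 h (-0.69 without the deeper, -0.74 without the shallower). The fall was in the ER fraction, since the cytosol alone rose (1.80, 1.19 and 1.74 in those comparisons).

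In S51A as in WT, the members that rose at 4 h were Dnajb9, Sdf2l1, Dnajc3, Dnajb11 and Dnajc1 (5 of 7, with 6.08% of all genes rising), and the median over the members was 1.42 against -0.00435 for all genes. At 2 h 4 of 7 rose (7.47% of genes), namely these without Dnajc1. At 0.5 h and 1 h limma called 0 members in S51A (0% and 0.835% of genes called), with 2 members at an unadjusted p under 0.05 at each time, and voom called 0 and 1. Of the 7 members, 4 rose in the line labelled ATF4-/- at 4 h (10% of genes) and at 2 h (8.87% of genes), namely Sdf2l1, Dnajb9, Dnajc3 and Dnajb11. The median at 4 h was 1.44, against 0.01 for all genes. At 1 h, 1 of 7 had risen there, Sdf2l1 (6.46% of genes rose), and 1 had fallen, Dnajc10 (4.5% fell). Members also passed the test at 0.5 h: Sdf2 (0.87 ± 0.21, adjusted p = 0.020) and Sdf2l1 (0.82 ± 0.22, adjusted p = 0.030) upward (3.2% of genes rose) and Dnajc10 downward (2.79% of genes fell). Without the shallower pair of 0.5 h none of these 3 passed (Sdf2 0.65, Sdf2l1 0.66, Dnajc10 -0.88). Sdf2 was also lost without either pair of 0 h (0.84 without the deeper, 0.90 without the shallower), Sdf2l1 without the deeper pair of 0 h (0.60) and Dnajc10 without the shallower (-0.96).

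**Figure D2:**
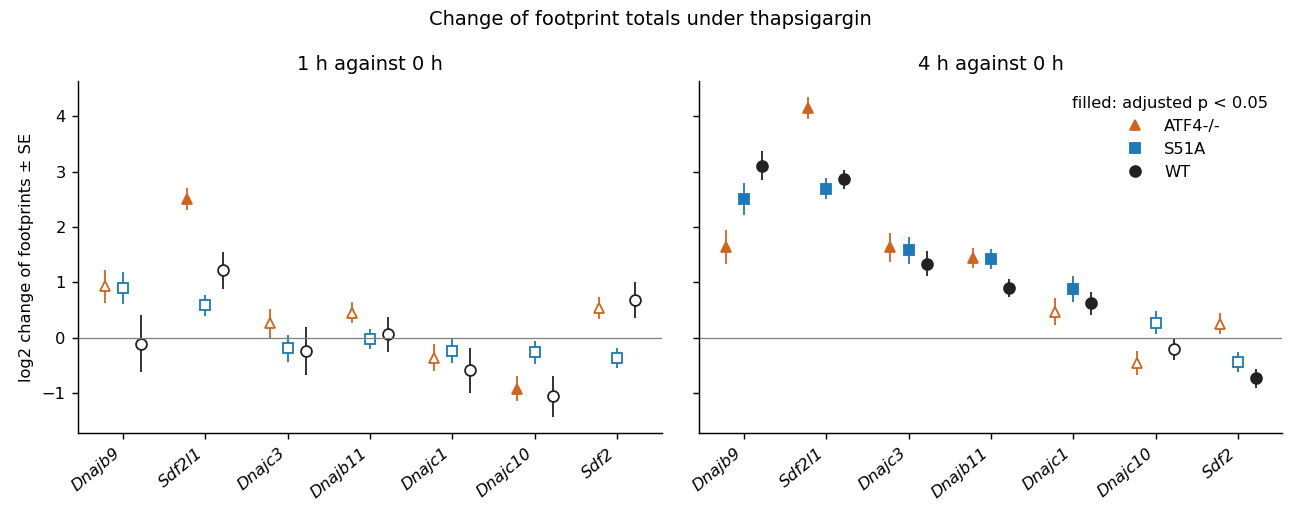
Log2 change ± SE of footprint totals at 1 h (left) and 4 h (right) against 0 h for each gene in cells labelled ATF4-/- (triangles), S51A (squares) and WT (circles); filled symbols have an adjusted p under 0.05. At 4 h the Dnajb9 changes are 1.63, 2.51 and 3.10 in that order of lines, and the Sdf2l1 changes 4.15, 2.69 and 2.86.

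By their labels, the S51A and ATF4-/- lines alter steps of the PERK arm, so the changes were compared between lines. At 4 h the change in cells labelled ATF4-/- differed from that in WT for 3 of 7 members, where 1.39% of the 10367 genes differed upward and 1.87% downward. Dnajb9 rose less (difference -1.47 ± 0.40, adjusted p = 0.048), Sdf2l1 rose more (1.29 ± 0.26, adjusted p = 0.011), and Sdf2 did not share the WT fall (0.99 ± 0.26, adjusted p = 0.038). These calls are at the edge of what 2 pairs a group allow: leaving out any 1 pair left between 0 and 1 of the 3, and without array weights 0 were left. Dnajb9 and Sdf2 were lost without any of the 8 pairs (-1.75 to -1.19 and 0.93 to 1.05). Sdf2l1 was lost without the deeper pair of 0 h or 4 h of either line or the shallower WT pair of 4 h (1.07 to 1.35). Between S51A and WT at 4 h limma called 0 of 7 members (14.6% of genes called), with 1 member at an unadjusted p under 0.05 and 1 called by voom. Dnajb9 differed by -0.60 ± 0.39 (adjusted p = 0.33), Dnajb11 by 0.52 ± 0.24 (adjusted p = 0.15) and Sdf2l1 by -0.17 ± 0.26. At 1 h limma called 0 members for either line (0% of genes called for ATF4-/- and 0.647% for S51A), with 1 member each at an unadjusted p under 0.05, while voom called 0 for ATF4-/- and 1 for S51A.

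Untreated cells differed as well. In cells labelled ATF4-/- 4 of 7 members were lower than in WT, where 40.1% of all genes were lower, so the members' count stands on a high background. Dnajb9 differed by -1.46 ± 0.29 (adjusted p = 3.4e-04), with 11.8 and 11.2 RPKM, against 27.2 and 40.7 RPKM in WT. Dnajc1 (-0.94 ± 0.23), Dnajc3 (-0.82 ± 0.25), Sdf2l1 (-0.72 ± 0.19) and, among non-members, Hspa5 (-0.79) were lower too. The median of all genes in that comparison was -0.37, and -0.09 after median-ratio scaling, and with voom, which averages the log changes of both fractions, 0 members passed. Calls also turned on single pairs: Dnajc1 was lost without the deeper WT pair (-0.69), Dnajc3 without that pair (-0.79) or the deeper pair labelled ATF4-/- (-0.72), and Sdf2l1 without the deeper pair labelled ATF4-/- (-0.49). In untreated S51A 1 of 7 members was higher than in WT (19.6% of genes), namely Sdf2, with 168 and 143 RPKM, against 86.3 and 79.0 RPKM in WT (0.90 ± 0.18, adjusted p = 3.0e-04).

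The authors' deposited pooled totals allow the J-domain members to be set against BiP itself. These totals carry no error estimate, so the spread of the ratios below is unknown. Hspa5 had 3817 RPKM in WT at 4 h, against 719.1 at 0 h, and 3694 against 754.1 RPKM in S51A. In cells labelled ATF4-/- it had 5448 RPKM at 4 h, against 414 RPKM at 0 h, the lowest untreated and the highest treated value of the 3 lines, as for Sdf2l1. The summed level of Dnajb9, Dnajb11, Dnajc1, Dnajc3 and Dnajc10 was 331.4, 546 and 601.5 RPKM at 4 h in cells labelled ATF4-/-, S51A and WT, against 149.8, 202.5 and 213.6 RPKM at 0 h. Per 100 footprint units of Hspa5, the 5 J-domain genes therefore had 6.08 in cells labelled ATF4-/- at 4 h, against 36.2 at 0 h. In S51A they had 14.8 at 4 h, against 26.9 at 0 h, and in WT 15.8 at 4 h, against 29.7 at 0 h. Within that sum, Dnajb9 made up 48.8% in WT at 4 h, against 15.9% at 0 h, while the 4 h share was 27.9% in S51A and 11.4% in cells labelled ATF4-/-. The summed level was higher at 4 h in each line, but that of Hspa5 was higher by a larger factor, most of all in cells labelled ATF4-/-.

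The fraction on the ER shows where ribosomes translating each mRNA were recovered. Untreated, 6 of the members had between 90.9% and 100% of their footprint level on the ER in every library pair. A share of 100% belongs to a pair whose cytosol library was listed at 0. Sdf2l1 was lower, with 88.1% and 89.7% in cells labelled ATF4-/-, 89.9% and 76.9% in S51A and 84.8% and 83.5% in WT. At 4 h of thapsigargin the Sdf2l1 share was 55.9% and 66.7% in cells labelled ATF4-/-, 67.9% and 75.2% in S51A and 58.4% and 60.6% in WT. The shift of ER relative to cytosol footprints behind these shares passed the test in cells labelled ATF4-/- (-1.87, adjusted p = 0.010), but not in S51A (-0.87, adjusted p = 1) or WT (-1.66, adjusted p = 0.070). Taken by fraction, Sdf2l1 rose in cytosol alone by 5.47 ± 0.31 in cells labelled ATF4-/-, 3.34 ± 0.32 in S51A and 4.01 ± 0.27 in WT at 4 h, against 3.60, 2.46 and 2.35 in the ER fraction alone. The share is a ratio of normalised levels with the fraction weights the authors used, so it is not a count of ribosomes.

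The shift, the change of ER relative to cytosol footprints, was tested at 1 h and 4 h. In cells labelled ATF4-/- 6 of 7 members shifted toward the cytosol at 1 h, where 9.96% of genes did, and the median over the members was -2.39 against -0.37 for all genes. Dnajb11 shifted most (-3.87), with 45.6 and 29.4 RPKM in cytosol libraries at 1 h, against 1.77 and 1.93 RPKM at 0 h, while its ER libraries had 68.3 and 63.9 RPKM, against 74.2 and 72.9 RPKM. Sdf2 (-3.15), Sdf2l1 (-2.61), Dnajc10 (-2.39), Dnajc3 (-1.66) and Dnajc1 (-1.27) followed, and Dnajb9 did not pass (-0.20, adjusted p = 0.87). The Dnajc3 call was lost without the shallower ER library of 0 h, either cytosol library of 0 h or the deeper library of either fraction of 1 h (-1.72 to -1.14). The Dnajc1 call was lost without any library of 0 h or the deeper library of either fraction of 1 h (-1.37 to -0.84). At 4 h 4 of 7 members were still shifted there (1.71% of genes): Dnajb11 (-2.76), Sdf2 (-2.69), Dnajc10 (-1.90) and Sdf2l1 (-1.87). Dnajb11 and Sdf2 passed whichever single library was left out. Dnajc10 was lost without any library of 0 h, either ER library of 4 h or the deeper cytosol library of 4 h (-1.98 to -1.49), and Sdf2l1 without the same libraries except the deeper ER library of 0 h (-1.98 to -1.64). In this comparison 0 members passed without array weights (adjusted p for Sdf2 0.077).

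In WT 3 of 7 members shifted toward the cytosol at 1 h (1.61% of genes): Sdf2 (-3.37 ± 0.80, adjusted p = 0.026), Dnajc10 (-3.27 ± 0.84, adjusted p = 0.034) and Dnajb11 (-3.07 ± 0.81, adjusted p = 0.040). All 3 were lost without the deeper untreated cytosol library, with values of -2.98, -3.25 and -2.78. With a pseudocount of 0.25 or with median-ratio scaling 0 members passed, and without the shallow libraries all 7 did. Dnajc10 was also lost without the shallower untreated ER library (-3.17), and Dnajb11 without the deeper one (-2.95). At 4 h 1 member passed in WT (1.15% of genes shifted so), Sdf2, at -1.77 ± 0.47 (adjusted p = 0.048), and was lost without the deeper library of either fraction of 0 h, the shallower ER library of 4 h or either cytosol library of 4 h (-1.82 to -1.38). The count there was 0 without array weights, 3 with no filter and 4 with median-ratio scaling. In S51A limma called 0 of 7 members at 1 h and at 4 h (0% and 0.0384% of genes called), with 1 member at an unadjusted p under 0.05 at each time. Shifts were not compared between lines by a test.

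For the earliest time, 0.5 h, shares are given as values, without a test of the shift. In cells labelled ATF4-/- the share of Dnajb11 on the ER was 53.1% and 56.1% at 0.5 h, against 97.7% and 97.4% at 0 h, and that of Sdf2 was 50.6% and 49.1%, against 93.2% and 94.9%. For Dnajb11 in S51A it was 94.9% and 88.1% at 0.5 h, against 96.5% and 92.7% at 0 h. In WT the 2 pairs of 0.5 h stood far apart, for instance 83.6% and 25.8% for Dnajc3 and 75.1% and 39.3% for Dnajb11, the low value in each coming from the pair with the cytosol library that stood apart. For Sdf2l1 that library was listed at 0, which gives a share of 100%. The other WT pair was below its untreated share for all 7 members. That count comes from a single pair, has no share of all genes beside it and so no background. The ER-targeted genes as a whole also made up more of the cytosol libraries labelled ATF4-/- at 0.5 h (6.86% and 7.31%) than at 0 h (4.02% and 4.12%). In WT the 0.5 h cytosol libraries had 6.27% and 14.2%, against 4.31% and 4.27% at 0 h, and in S51A 6.10% and 7.66%, against 6.37% and 6.71%. How far this general movement, or carry-over between fractions, accounts for the members' shares was not tested.

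**Figure D3:**
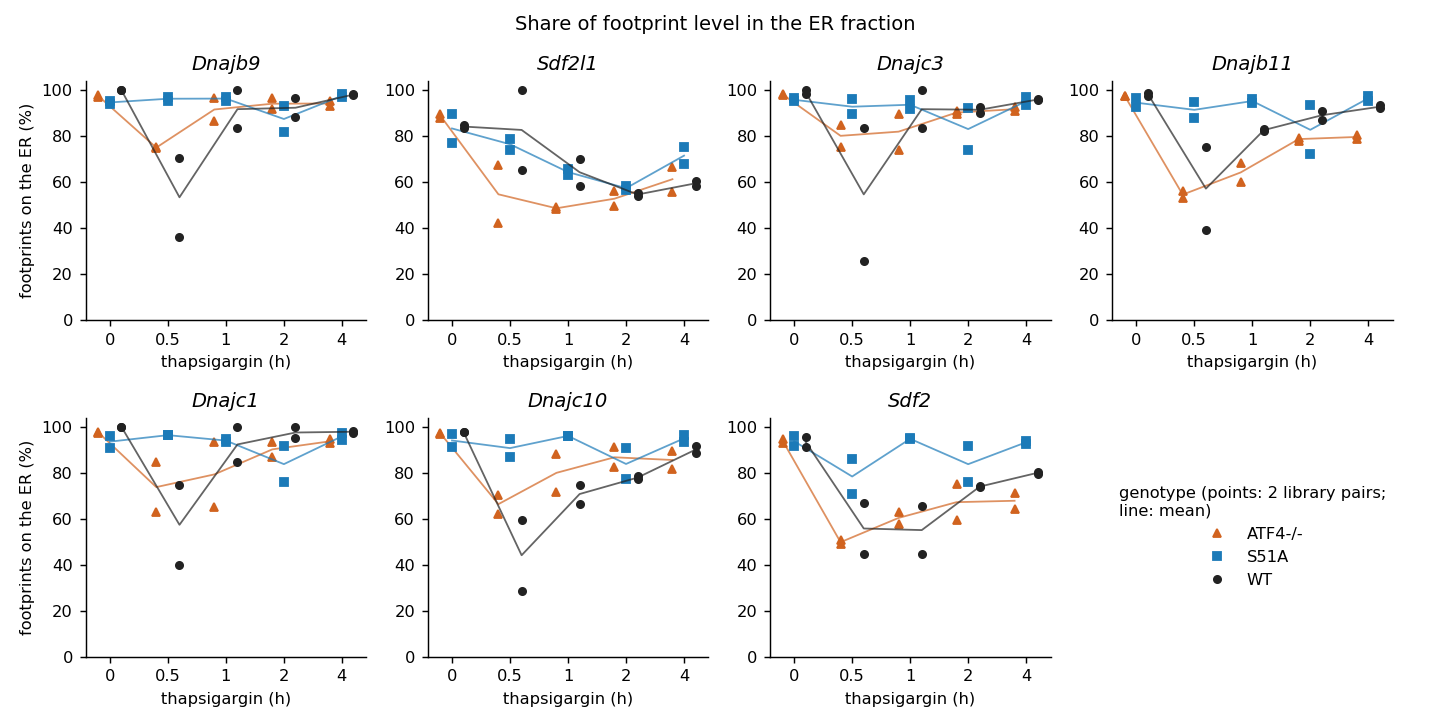
Percent of the footprint level recovered in the ER fraction for each gene by hours of thapsigargin, in cells labelled ATF4-/- (triangles), S51A (squares) and WT (circles); points are the 2 library pairs and lines their means. Dnajb11 and Sdf2 labelled ATF4-/- fall to between 49.1% and 56.1% at 0.5 h, and the lowest WT points of 6 of the genes at 0.5 h belong to the shallowest cytosol library.

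mRNA was measured far less deeply, with 207 to 299615 reads per library in cells labelled ATF4-/-, 727 to 556255 in S51A and 56964 to 118512 in WT, and a median of 2.5, 2 and 3 reads on a member. limma called 0 of 7 members at 1 h and 4 h in both S51A (0% and 0.0661% of genes called) and WT (0% and 0.302%). At an unadjusted p under 0.05 there were 1 and 2 members in S51A and 0 and 2 in WT, and voom called 0 in each. In WT the Dnajb9 totals were 105 and 72.7 RPKM at 4 h, against 14.3 and 0 RPKM at 0 h. The 4 libraries of 0 h held 3 reads of Dnajb9 between them, so the change of 4.50 ± 0.97 (adjusted p = 0.072) depends on the pseudocount. In S51A the ER libraries had 100 and 48.6 RPKM at 4 h (88 and 24 reads), against 4.54 and 9.41 RPKM at 0 h (4 and 3 reads), a change of 2.49 ± 1.23 for the total (adjusted p = 0.55).

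In S51A the 4 h values of Sdf2l1 and Dnajc3 also lay above those of 0 h, without passing the test. The median mRNA change at 4 h was 1.57 over the members and 0.45 over all genes in S51A. In WT it was 0.86 over the members and 0.22 over all genes. Sdf2l1 in S51A had mRNA totals of 190 and 178 RPKM at 4 h, against 21.7 and 15.8 RPKM at 0 h (3.25 ± 1.41, adjusted p = 0.48). In WT its mRNA totals of 28.7 and 8.49 RPKM at 4 h overlapped with the 0 and 16.01 RPKM of 0 h. Dnajc3 in S51A had 214 and 196 RPKM in the ER libraries at 4 h (424 and 219 reads), against 68.7 and 70.6 RPKM at 0 h (137 and 51 reads), and changed by 1.57 ± 0.61 in total (adjusted p = 0.43). The labels list 2 mRNA libraries per group for the ATF4-/- line too, but its deposited mRNA values resolved into only 1, so these are values with no test. In them, ER mRNA at 4 h was 206 RPKM for Dnajb11 (174 reads), 207 RPKM for Dnajc3 (246 reads) and 155 RPKM for Sdf2l1 (81 reads). At 0 h the values were 20.5, 18.98 and 16.6 RPKM, which rest on only 10, 13 and 5 reads. Dnajb9 mRNA there had 20.99 RPKM at 4 h (11 reads) and was listed at 0 at 0 h. The change of footprints relative to mRNA was called for 0 members (0.138% of genes called in WT, 0% in S51A), and 0 had an unadjusted p under 0.05. For Dnajb9 in WT it was -1.39 ± 1.13, so a change in translation per mRNA was not detectable at this depth.

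**Figure D4:**
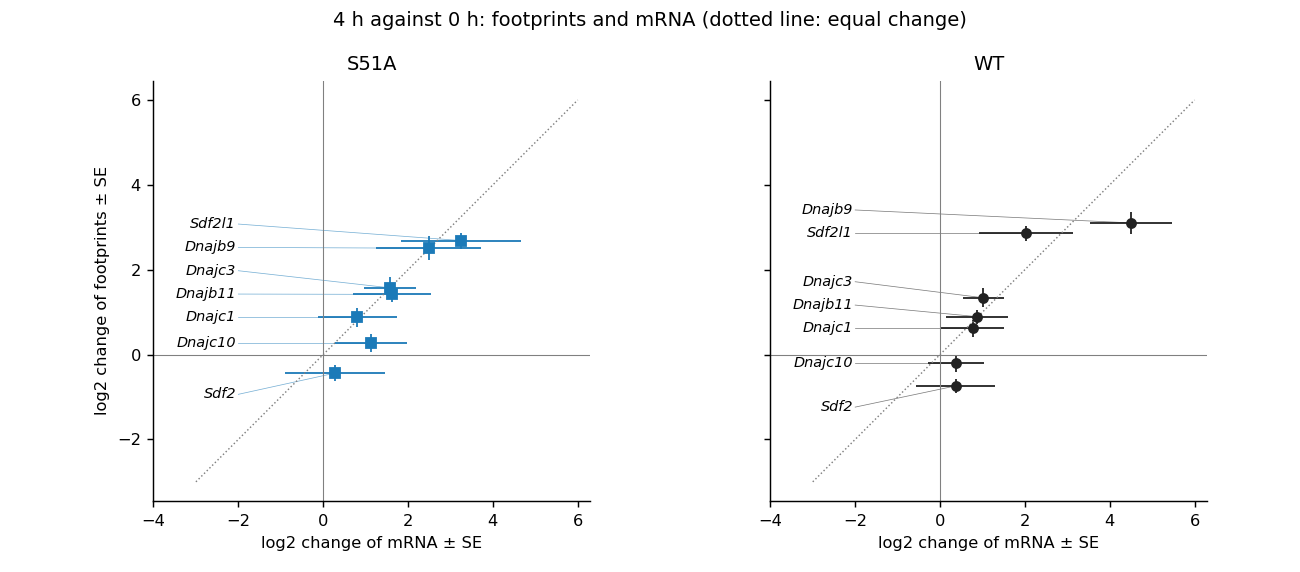
Log2 change ± SE of footprints (vertical axis) against that of mRNA (horizontal axis) at 4 h against 0 h in S51A (left) and WT (right); the dotted line marks equal change and thin lines join points to gene names. The points of S51A and WT with the largest footprint change, Sdf2l1 (3.25 in mRNA, 2.69 in footprints) and Dnajb9 (4.50 and 3.10), also have the largest mRNA change, with wide errors.

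Other chaperone genes were counted in lists that do not hold the members. Of all genes tested at 4 h, 10% rose in the ATF4-/- line, 6.08% in S51A and 16.8% in WT. Those that fell were 780 of 10417, 685 of 10413 and 1279 of 10369 in that order of lines. Of 7 other ER J-domain genes, which include Sec63 of the translocon, 1 rose at 4 h in cells labelled ATF4-/- (Dnajc18, 0.62), 0 in S51A, and 1 in WT (Dnajc18, 0.56 ± 0.17, adjusted p = 0.016). Of 24 tested J-domain genes of cytosol, nucleus and mitochondria, 0 rose and 3 fell in cells labelled ATF4-/- (Dnaja1 by -0.72 among them). In S51A 0 rose and 2 fell (Dnajb1 -1.11, Dnajb4 -0.56), and in WT 3 rose and 1 fell, the largest change being that of Dnaja3 at 0.69. BiP and its partners in folding rose in 4 of 9 tested genes in cells labelled ATF4-/- (Hsp90b1, the ER Hsp90, 1.79; Pdia4, a disulfide isomerase, 1.596; Calr, a calcium-binding lectin, 1.11). They rose in 3 of 8 in S51A (Hyou1, a nucleotide exchange factor of BiP, 0.87; Pdia4 0.86; Pdia3 0.60) and in 5 of 10 in WT (Hspa5 2.41; Hsp90b1 1.05; Pdia4 0.97). Genes with no solved total in a line were not counted there. Hspa5 is one of these at 4 h in the ATF4-/- and S51A lines, where its ER libraries were not solved and only its cytosol libraries were. Of 15 other genes of the ATF6 and XBP1 branches, 9 rose in cells labelled ATF4-/-, 12 rose and 1 fell in S51A, and 10 rose in WT. Herpud1, a membrane component of ER-associated degradation, changed by 4.64, 2.61 and 3.55 in that order of lines, Manf, an ER protein that binds BiP, by 3.10, 2.20 and 2.06, and Creld2, an ER protein with disulfide isomerase activity, by 2.39, 2.75 and 1.78. Of 4 other tested MIR-domain genes 0 rose in any line, and Itpr3, a calcium channel of the ER, fell in WT (-0.68).

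The genes most like each member were taken by Pearson correlation of the authors' pooled footprint totals over the 15 genotype and time groups, among 6990 genes. These groups share time, line and library, so r is a description. Sdf2l1 was most like Hspa5 and Manf (both 0.940) and Ccdc134 (0.919), and Dnajb11 most like Manf (0.9504), the signal peptidase subunit Sec11a (0.940) and Derl2 (0.924), a degradation factor of the ER membrane. Dnajc3 was most like Derl2 (0.949), Sel1l (0.913) and Slc30a7 (0.909), and Dnajc1 most like Ssr3 (0.978), Rnf121 (0.975) and Nucb2 (0.966). Dnajb9 had Dock11 (0.934), the vesicle tether gene Uso1 (0.933) and 1700047I17Rik2 (0.921) at its head. Dnajc10 was most like Ppfibp1 (0.929), Fam134b (0.925) and Txndc5 (0.924), and Sdf2 most like Sdhd, Gm12854 (both 0.889) and S100a11 (0.887). Among the members the highest r values were 0.884 for Dnajb11 with Sdf2l1, 0.872 for Dnajb9 with Dnajc3 and 0.853 for Dnajc1 with Dnajc3, whereas Sdf2 had r between -0.506 and -0.0784 with the other members.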

How the data were processed

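The authors deposited, per the file headers, pooled total levels and a fraction on the ER for footprints and mRNA. The totals are RPKM, read from the values since no header names a unit, and the deposited fraction is a ratio of the ER level to the total. The tools listed were cutadapt 1.6 and Bowtie 1.1.1, per the submitters' processing notes. The authors' genome build was not given in the sources used here. Reads of single libraries were solved from these values as whole numbers with GENCODE coding lengths (relative tolerance 7e-12). This worked for 362981 of 369980 footprint values (98.1%) and 248351 of 252881 mRNA values (98.2%), and for 0.0955% and 0.103% with lengths exchanged between genes. Libraries of a group differed by 1.15 or more (mRNA) and 1.97 or more (footprints) in chi-square per degree of freedom, so none was counted as an identical copy. Repeated sampling of the same library gives values near 1, so low values cannot tell technical duplicates from separate samples. The recovery and the limma fit were both run on simulated data, with outcomes not reported here. The recovery was simulated only for footprints labelled ATF4-/- at 2 h, and the limma fit only for footprints. The far shallower mRNA libraries were therefore not covered.

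Totals were compared with limma 3.58.1 (trend, array weights) in R 4.3.3 on log2(RPKM + 1) over genes at 1 RPKM or more in at least 10 libraries (10419 for footprints, 10598 for mRNA). The pseudocount understates changes of low genes. All genotypes and times were fitted together. Python 3.11.15 did the rest. The planned choice for counts did not apply, because the deposited values are normalized; the recovered reads were used with voom as an alternative. P-values measure the spread between libraries, which may be technical. Which ER and cytosol libraries came from the same cells is unknown, so pairing by depth is arbitrary. The members and lists were chosen with earlier results of these data known. The rule for named genes covers all 7 members, the 3 genes most like each by r (mean pooled total of at least 10 RPKM) and the 3 list genes with the largest change past the threshold. Leaving out shallow libraries, and voom on untreated and difference comparisons, were alternatives chosen after seeing the data.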

Additional observations from a re-analysis of the deposited data

Results flagged for a closer look

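The changes of 3 genes at 4 h differed between the line labelled ATF4-/- and WT by the test of the difference itself. For Dnajb9 the change labelled ATF4-/- minus that of WT was -1.47, for Sdf2 it was 0.99 and for Sdf2l1 it was 1.29 on the log2 scale. The direction of all 3 was the same in every alternative run, but none of the 3 passed without array weights.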

How the results depend on the processing

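Each change was recomputed with other pseudocounts, no filter, median-ratio scaling, no array weights, the other library pairing, only the genotypes compared, each fraction alone, voom, without the shallow libraries and without each library or pair. The Sdf2l1 calls on footprint totals at 2 h and 4 h held in all 3 lines under every alternative run, and those of Dnajb9 under every one but the cytosol alone in S51A at 4 h. Counts of members past the threshold that moved by over 1.5 times follow. These, and the counts with 1 library or pair left out, hold both directions and have no share of all genes beside them. For median-ratio scaling, numbers of all genes called are given further below for the comparisons named there. Whether a moved count only follows that of all genes was not tested. In WT at 0.5 h (0 members), it was 1 with median-ratio scaling, 2 without array weights, 4 with voom and 2 without the shallow libraries. There it was 5 on the ER alone, all lower, and 6 on the cytosol alone, all higher. In WT at 1 h (0), it was 1 with a pseudocount of 4 and with no filter, 2 with the other pairing and without the shallow libraries, 3 without array weights and on the cytosol alone and 5 with voom. The cytosol alone gave 6 in WT at 2 h (3), 1 in S51A at 1 h (0) and at 4 h (5), 6 in ATF4-/- at 0.5 h (3) and 5 at 1 h (2). The ER alone gave 3 in WT at 4 h (6), 2 in S51A at 2 h (4) and 2 in ATF4-/- at 2 h (4). In ATF4-/- at 1 h the other pairing and voom gave 4, and voom gave 1 in S51A at 1 h (0). Voom gave 0 for untreated ATF4-/- against WT (4), and 1 for the differences of S51A at 1 h and 4 h (0 each) and of ATF4-/- at 4 h (3), which was 0 without array weights. The difference of ATF4-/- at 1 h (0) was 1 without the shallow libraries. The WT shift at 1 h (3) was 0 with a pseudocount of 0.25 and with median-ratio scaling, and 7 without the shallow libraries. The WT shift at 4 h (1) was 3 with no filter, 4 with median-ratio scaling and 0 without array weights, and the ATF4-/- shift at 4 h (4) was 0 without array weights. A pseudocount of 4 gave 1 for the S51A shift at 4 h (0) and for WT mRNA at 4 h (0).

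Leaving out 1 library or pair gave, at 0.5, 1, 2 and 4 h, 0 to 3, 0 to 4, 2 to 3 and 4 to 5 members in WT, 0, 0 to 1, 2 to 4 and 4 to 5 in S51A, and 0 to 3, 1 to 2, 3 to 4 and 4 in ATF4-/-. It gave 1 to 3 for untreated S51A and 2 to 4 for untreated ATF4-/-. For differences it gave 0 to 3 (S51A, 1 h), 0 to 2 (ATF4-/-, 1 h), 0 (S51A, 4 h) and 0 to 1 (ATF4-/-, 4 h). For shifts it gave 0 to 6 and 0 to 2 in WT at 1 h and 4 h, 0 in S51A, and 4 to 6 and 2 to 4 in ATF4-/-. For mRNA it gave 0 to 1 in WT at 4 h and S51A at 1 h, and for footprints relative to mRNA in WT 0 to 2. Where an arm kept 1 pair, it was taken to vary like the other groups.

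Directions turned for Dnajc10 on the cytosol alone (WT 2 h 1.74, ATF4-/- 0.5 h 1.80, ATF4-/- 1 h 1.19) and with voom (0.70, 0.51 and 0.30), for Sdf2 in WT at 4 h on the cytosol alone (0.82) and in ATF4-/- at 0.5 h on the ER alone (-0.039), and for Dnajc1 in untreated ATF4-/- against WT with voom (0.24). Each fraction alone and voom, which averages both log changes, measure another quantity than the total by construction. Median-ratio scaling also changed the split of all genes called, to 1294 higher and 1721 lower in WT at 4 h (1747 and 1279 unscaled), 1320 and 2162 in WT at 2 h (1683 and 1486), 1077 and 806 in S51A at 2 h (778 and 942), and 842 and 669 in ATF4-/- at 2 h (924 and 445). For untreated S51A it gave 2823 and 1848 (2031 and 2612), with a median moving to 0.12 from -0.05, and for untreated ATF4-/- 2067 and 2720 (1223 and 4161). For the difference at 4 h it gave 815 and 717 for S51A (598 and 914) and 216 and 152 for ATF4-/- (144 and 194). For shifts toward the cytosol it gave 381 genes in ATF4-/- at 1 h (1038 unscaled), 71 in WT at 1 h (167) and 228 in WT at 4 h (119), and in WT at 0.5 h it gave 882 higher and 1202 lower (330 and 318). The median moved to -0.14 from -0.02 in WT at 2 h. The cause of these other differences was not tested. mRNA depth limits what can be seen: a member had a median of 2 to 3 reads in a library. No paired analysis was possible because the recovered libraries carry no replicate number.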
